A study of Homo sapiens with 12 samples.

Results

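The genes described here are 42 that act in the DNA damage checkpoint, in the repair of DNA double-strand breaks and in the Fanconi anemia pathway, taken by name for their textbook roles. The list was made with earlier results of these data known. On the array used, 37 of the 42 had at least 1 probe set that the annotation gives to that gene alone, out of 19775 genes with such a probe set, and each of the 37 was bright enough to be tested. BRCA2, RBBP8, FANCA and FANCD2 were not analysed here, and ATRIP, the partner of ATR, was left out because its 3 probe sets are shared with TREX1.

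A double-strand break is sensed by the MRE11-RAD50-NBN complex, which activates the kinase ATM, whereas single-stranded DNA at stalled forks activates ATR through TOPBP1 and claspin (CLSPN). The kinases CHEK1 and CHEK2 carry these signals to the cell cycle machinery. Breaks are then repaired either by homologous recombination, through BRCA1, PALB2, XRCC3 and RAD54L, or by end joining, through Ku (XRCC5 and XRCC6), DNA-PKcs (PRKDC), XRCC4 and LIG4. The Fanconi proteins repair DNA crosslinks, with a core complex that attaches ubiquitin to FANCI and its partner. UV-C light chiefly joins neighbouring pyrimidines on a strand, and forks that stall at this damage are what brings in the checkpoint.

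RNA was measured in SW13, a human cell line from a carcinoma of the adrenal cortex that lacks the BRG1 protein, the ATPase of SWI/SNF chromatin remodelling complexes. There were 4 groups of 3 arrays, each from separate biological experiments numbered 1 to 3: SW13+BRG1 cells (SW13+pREP7+BRG1, BRG1 reintroduced on the pREP7 plasmid) that received UV at 10 J/m2, SW13+BRG1 cells that were mock treated, SW13+vector cells (SW13+pREP7, the empty plasmid) that received the same UV, and SW13+vector cells that were mock treated. All cells were collected 6 hours later. Each line is a single stable line, so BRG1 and anything else that came to differ between the 2 lines cannot be told apart.

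SMARCA4, the gene of BRG1, did not check the labels. Its brightest probe set gave 230 ± 97.7 in UV-treated and 213 ± 106 in mock-treated cells labelled SW13+BRG1, against 520 ± 145 and 539 ± 332 in the corresponding vector cells (mean signal ± SD, n = 3), so it was lower in the line labelled SW13+BRG1. Of its 7 tested probe sets, 0 passed as higher and 2 as lower without UV, and 1 as higher and 1 as lower after UV; which of them lie in the transferred sequence is stated neither by the labels nor by the methods. CD44, a gene known to need SWI/SNF activity in SW13 cells, was higher in the line labelled SW13+BRG1 by all 11 of its tested probe sets without UV and by 10 after UV. The study describes a Western blot for BRG1 protein in the SW13+BRG1 line, which these arrays do not measure. The lines are called the BRG1-labelled and the vector-labelled line throughout. Of 10 adrenal cortex markers 8 had a probe set and 2 (MC2R and CYP17A1) passed the filter, while STAR, CYP11A1, CYP11B1, CYP11B2, HSD3B2 and NR5A1 did not; the 8 had summed signals of 89.8 to 120 in the BRG1-labelled line and 54.3 to 158 in the vector-labelled line. Among markers of other cells, the blood gene PTPRC gave 1.07 to 12.8 in the BRG1-labelled line, below the median of each array, and 77.3 to 160.0 in the vector-labelled line, so it was tested through the vector-labelled arrays alone. LUM of fibroblasts gave 3.39 to 45.8 in the BRG1-labelled line, with both arrays of experiment 3 below the median, and 122 to 285 in the vector-labelled line, whereas COL1A1 was higher in the BRG1-labelled line (log2 fold change 2.18 without UV and 2.22 after UV). The summed blood markers ranged between 17.9 and 42.1 in the BRG1-labelled line and between 87.5 and 166 in the vector-labelled line, and the summed fibroblast markers between 129 and 250.3 in the BRG1-labelled line and between 194 and 372 in the vector-labelled line. Of the blood markers 3 of 4 had a probe set and PTPRC alone passed the filter; of 4 fibroblast markers 3 passed it. The 3 endothelium markers summed to between 37.5 and 79.8 in the BRG1-labelled line and between 28.1 and 58.0 in the vector-labelled line. The part of these differences in the results below was not tested. Medians of the 12 arrays lay between 21.1 and 25.3 on the signal scale, and log2 signals correlated at 0.879 to 0.917 between arrays of a group and at 0.818 to 0.893 between groups. The array of experiment 3 had the lowest median in each group. Leaving out those 4 arrays was a choice made after seeing the data. Without them, 7 of the 37 genes were called between the lines without UV and 13 after UV. For UV, 4 were called in the BRG1-labelled and 0 in the vector-labelled line. With all arrays these counts were 7, 6, 3 and 1. The share of all tested genes called without those arrays is not given here, so the change is no result about the 37.

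Many genes of this kind are transcribed in S phase, and their promoters often hold CCAAT boxes, the letters bound by the factor NF-Y. In the RefSeq promoter windows of build GRCh38.p14 (250 bases before to 50 after the most upstream start of each gene; 31 of the 37 genes matched), CCAAT on either strand stood in 16 of the 31 genes (51.6%), against 35.7% of all 27305 genes in the table. The E2F-type letters TTTGGCGC or TTTCGCGC stood in 3 of 31 (9.68%; FANCC, TOPBP1 and XRCC6), against 1.17% of all genes, and the CHR letters TTTGAA or TTTAAA in 5 of 31 (16.1%), against 24.4%, both strands searched and no match of 1 motif overlapping one of another. Of the 10 genes called more than 2-fold lower in the BRG1-labelled line in either comparison of the lines (below), 8 were in the table. Of these, 6 held CCAAT, and the stretch before the start that carries it is shown for these 6 alone. The letters also stood in the windows of other called genes, which are not shown. These were XRCC4, called higher between the lines, and FANCF, called lower for UV in the BRG1-labelled line. The stretches run 5′ to 3′ on the strand of the gene, with CCAAT or its reverse complement ATTGG in capitals. They lie at chr15:90717185-90717345 on the plus strand (BLM), chr11:125626104-125626148 on the plus strand (CHEK1), chr1:35770000-35770117 on the minus strand (CLSPN), chr6:30717311-30717520 on the minus strand (MDC1), chr16:23641312-23641356 on the minus strand (PALB2) and chr14:103715460-103715687 on the minus strand (XRCC3).
BLM: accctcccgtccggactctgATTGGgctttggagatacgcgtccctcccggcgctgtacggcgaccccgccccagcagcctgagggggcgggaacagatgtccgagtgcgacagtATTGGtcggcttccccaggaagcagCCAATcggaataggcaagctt
CHEK1: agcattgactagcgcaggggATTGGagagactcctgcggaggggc
CLSPN: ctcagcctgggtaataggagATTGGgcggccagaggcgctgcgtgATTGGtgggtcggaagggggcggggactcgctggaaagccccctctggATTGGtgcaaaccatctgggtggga
MDC1: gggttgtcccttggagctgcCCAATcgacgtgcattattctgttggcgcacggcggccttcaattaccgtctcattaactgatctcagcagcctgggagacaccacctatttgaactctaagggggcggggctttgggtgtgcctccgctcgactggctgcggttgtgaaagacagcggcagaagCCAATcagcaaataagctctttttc
PALB2: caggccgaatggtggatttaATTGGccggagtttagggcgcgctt
XRCC3: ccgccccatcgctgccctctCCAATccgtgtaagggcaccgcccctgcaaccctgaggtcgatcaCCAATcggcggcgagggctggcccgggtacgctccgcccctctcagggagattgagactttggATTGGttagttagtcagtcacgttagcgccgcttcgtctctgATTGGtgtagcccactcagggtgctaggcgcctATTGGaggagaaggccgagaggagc
XRCC3 held 5 matches before its start, BLM and CLSPN 3 each, MDC1 2, and CHEK1 and PALB2 1 each. A match is a run of letters, and no binding was measured here. All genes in the promoter table were taken for comparison, not only those tested on the array, so the shares are not those of like genes. Among the 15 genes with a window that passed the test as lower in the BRG1-labelled line in either comparison, 10 held CCAAT (66.7%), and among the other 16 genes 6 did (37.5%).

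In each comparison a gene was called when limma gave an adjusted p under 0.05 (Benjamini-Hochberg over all 13784 tested genes) and a fold change above 2, and it passed when the adjusted p alone was met. Without UV, 7 of the 37 genes were called between the BRG1-labelled and the vector-labelled line, 1 higher (XRCC4) and 6 lower (BLM, FANCB, RAD54B, CHEK1, FANCI and MDC1). These are 2.7% of the 37 higher and 16.2% lower, beside 9.38% of all tested genes called higher and 5.27% called lower. By the adjusted p alone 1 gene passed as higher and 12 as lower (2.7% and 32.4%), beside 15.3% and 13.2% of all genes. The median log2 fold change of the 37 was −0.37, with 31 of 37 negative, against a median of 0.00147 over all genes. Leaving out 1 array at a time gave 3 to 10 called genes, with 3 without the mock BRG1 or the mock vector array of experiment 1.

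After UV, 6 of the 37 were called between the lines, again with XRCC4 higher, and with CLSPN, XRCC3, PALB2, LIG4 and BLM lower (13.5%), where 9.85% of all genes were called higher and 6.86% lower. By the adjusted p alone 2 passed as higher (XRCC4 and ATM, 5.41%) and 16 as lower (43.2%), beside 16.4% and 15.5% of all genes. The median of the 37 was −0.39, with 30 negative, against −0.02 over all genes. The comparisons without and after UV share no array but share the estimate of the spread. Of the 13 and 18 genes that passed, 10 did so in both (BLM, CHEK1, CHEK2, FANCB, FANCI, MDC1, MRE11, RAD54B, TOPBP1 and XRCC4), and 34 of 37 had the same sign. The 2 sets of log2 fold changes correlated at 0.848 over the 37 genes and at 0.848 over all tested genes. By this measure the likeness was not particular to the 37. Each gene that passed in either comparison had the same sign in all 3 experiments, which is no separate check, as the genes were picked by these same values. Leaving out 1 array at a time gave 5 to 11 called genes, with 11 without the UV BRG1 array of experiment 3.

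Fewer of these genes were called for UV than between the lines, and the same held for all tested genes. Of all genes 7.17% were called for UV in the BRG1-labelled line and 4.82% in the vector-labelled line. Between the lines 14.6% were called without UV and 16.7% after UV. In the BRG1-labelled line 3 were called after UV, all lower (PALB2, FANCF and BARD1, 8.11%), where 0.609% of all genes were called higher and 6.57% lower. Of the 37, 2 passed by the adjusted p alone as higher and 7 as lower (18.9%), beside 8.03% and 11.8% of all genes, and their median was −0.23 against 0.03. In the vector-labelled line 1 was called, BARD1, which was lower, where 0.66% of all genes were called higher and 4.16% lower. There 0 passed in limma as higher (2 at an unadjusted p under 0.05) and 7 as lower (18.9%), beside 5.56% and 8.48% of all genes, with a median of −0.22 against 0.03. The signs within the 3 experiments were the same for every gene that passed, again no separate check. Leaving out 1 array at a time gave 2 to 4 called genes in the BRG1-labelled line, with 2 without the mock BRG1 array of experiment 2 or 3, and 0 to 2 in the vector-labelled line, with 2 without the UV BRG1 array of experiment 2 and 0 without the mock vector array of experiment 3.

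**Figure D1:**
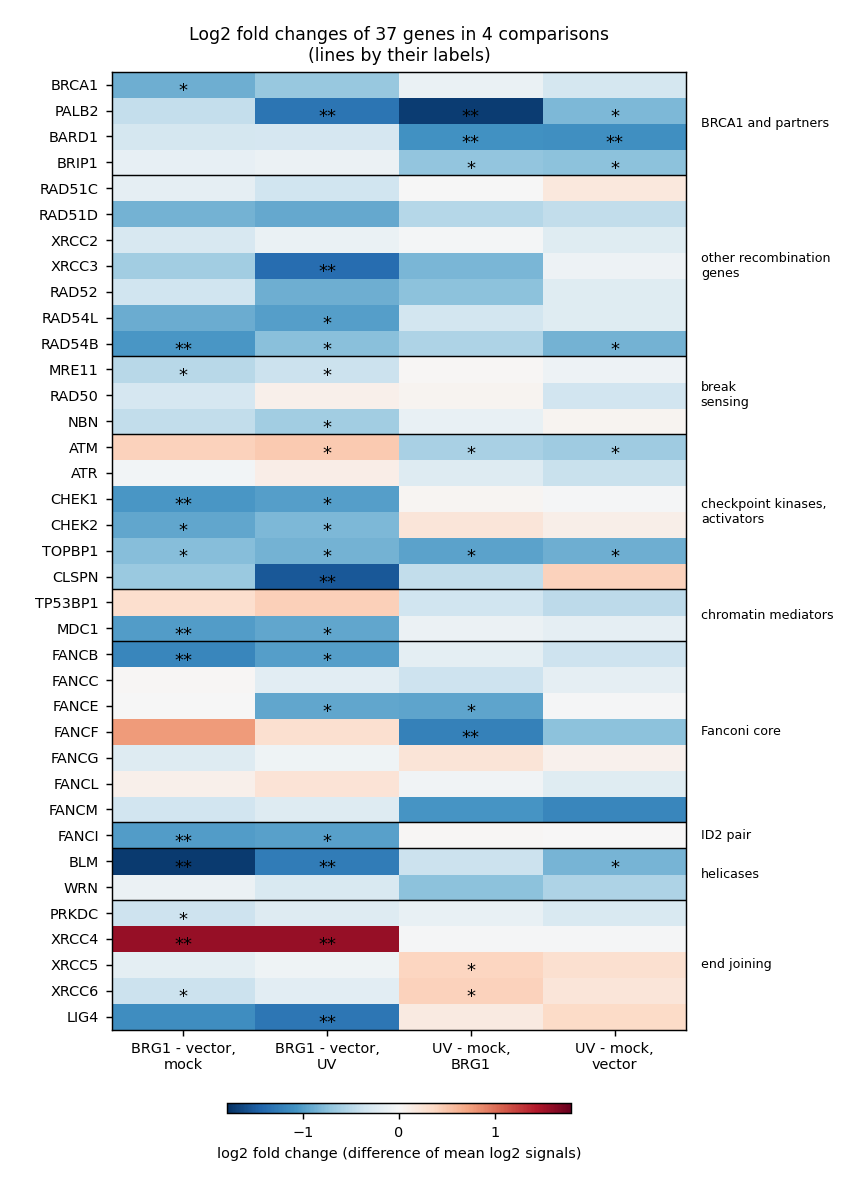
Log2 fold changes of the 37 genes (rows, grouped by role) in the 4 comparisons (columns), blue for lower and red for higher, with 1 star for an adjusted p under 0.05 and 2 stars where the fold change was also above 2. Most stars between the lines are blue, 12 against 1 without UV and 16 against 2 after UV, and XRCC4 has the deepest red.

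Among the checkpoint kinases and their activators, CHEK1, CHEK2 and TOPBP1 were lower in the BRG1-labelled line with and without UV. ATM was higher in that line after UV and did not pass without UV. CHEK1, the kinase that halts the cycle when replication is blocked, gave 370, 380 and 394 in mock-treated BRG1-labelled cells, against 862, 768 and 733 in mock-treated vector-labelled cells. After UV it gave 385, 380 and 403 in BRG1-labelled and 875, 764 and 690 in vector-labelled cells. The lines did not overlap and the values with and without UV lay side by side in each: the log2 fold change between the lines was −1.04 (SE 0.12, adjusted p = 2.59e-05) without UV and −0.99 (adjusted p = 3.66e-05) after UV, and for UV it was 0.03 in the BRG1-labelled and −0.02 in the vector-labelled line. The value without UV sat just past the 2-fold threshold and was −0.98 without the mock vector array of experiment 1. CHEK1 had 4 tested probe sets. Without UV all 4 had the same sign and 2 were called, and after UV 1 was called and 1, the dimmest, had the opposite sign (1.14, adjusted p = 0.456). The mean over them gave −0.80 without UV and −0.51 (adjusted p = 0.184) after UV. CHEK2, the kinase downstream of ATM, averaged 132 ± 19.7 in BRG1-labelled and 249 ± 10.3 in vector-labelled mock cells (SD, n = 3), and 158 ± 51.6 in BRG1-labelled and 268 ± 27.1 in vector-labelled cells after UV (−0.93 and −0.81, adjusted p = 0.00464 and 0.00994).

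CLSPN, the adaptor through which ATR activates CHEK1, was called between the lines after UV and did not pass without it. UV-treated cells gave 27.7, 25.1 and 36.2 in the BRG1-labelled line and 94.2, 75.1 and 85.5 in the vector-labelled line. Mock-treated cells gave 30.7, 41.7 and 49.9 in the BRG1-labelled line and 44.9, 76.2 and 75.6 in the vector-labelled line. The groups did not overlap after UV (log2 fold change −1.53, SE 0.31, adjusted p = 0.00187) and overlapped without it (−0.67, adjusted p = 0.129). The UV-treated BRG1-labelled signals lay near the medians of those arrays (24.1, 24.3 and 21.1), where a fold is uncertain. Over 25 other ways of processing the arrays, the value of CLSPN after UV lay between −1.68 and −1.15. The difference between its UV effects in the lines was −0.86 with an adjusted p of 0.948, so the lines were not shown to respond differently. TOPBP1, which switches on ATR, was the gene of the 37 that passed in all 4 pairwise comparisons. It gave 123, 136 and 145 in UV-treated and 264, 260 and 259 in mock-treated BRG1-labelled cells. In vector-labelled cells it gave 253, 275 and 202 after UV and 458, 450 and 425 after mock treatment. UV and the BRG1 label thus each went with a lower signal, with log2 fold changes of −0.96 for UV in the BRG1-labelled line (SE 0.15, adjusted p = 0.000675), −0.88 for UV in the vector-labelled line (adjusted p = 0.00211), −0.76 between the lines without UV (adjusted p = 0.00163) and −0.85 after UV (adjusted p = 0.000677), each short of 2-fold.

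ATM, the kinase activated by breaks, averaged 497 ± 52.9 in BRG1-labelled and 360 ± 34.6 in vector-labelled cells after UV, and 746 ± 47.1 in BRG1-labelled and 568 ± 118 in vector-labelled cells after mock treatment. Its signal was thus lower after UV in both lines, by a log2 fold change of −0.59 (adjusted p = 0.017) in the BRG1-labelled and −0.64 (adjusted p = 0.0151) in the vector-labelled line, and higher in the BRG1-labelled line after UV, by 0.47 (adjusted p = 0.0348). None of these passed with the mean over the probe sets of each gene, which gave −0.22 (adjusted p = 0.594) for UV in the BRG1-labelled line, −0.62 (adjusted p = 0.106) for UV in the vector-labelled line and 0.16 (adjusted p = 0.646) between the lines after UV. The UV value in the BRG1-labelled line also did not pass without the UV BRG1 array of experiment 3 or the mock BRG1 array of experiment 1 (adjusted p up to 0.0739), and that in the vector-labelled line without the UV vector array of experiment 2 (adjusted p = 0.0608). The difference between the lines did not pass without the UV BRG1 or UV vector arrays of experiments 1 and 2, each left out alone (adjusted p up to 0.126). Without UV the difference between the lines was 0.41 (adjusted p = 0.0659). A much dimmer ATM probe set (mean log2 signal 4.138 against 9.027) was called lower in the BRG1-labelled line without UV, at −1.91 (limma adjusted p = 0.0471 over all probe sets). The other tested ATM probe sets gave 0.39, 0.31 and −0.37 there. The brightest probe set of ATM, like those of XRCC2 and XRCC4, is of a design that can share probes with other transcripts. ATR, the kinase of stalled forks, averaged 266 ± 39.9 in BRG1-labelled and 245 ± 34.2 in vector-labelled cells after UV and 312 ± 35.1 in BRG1-labelled and 324 ± 39.0 in vector-labelled cells after mock treatment, and passed in no comparison.

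**Figure D2:**
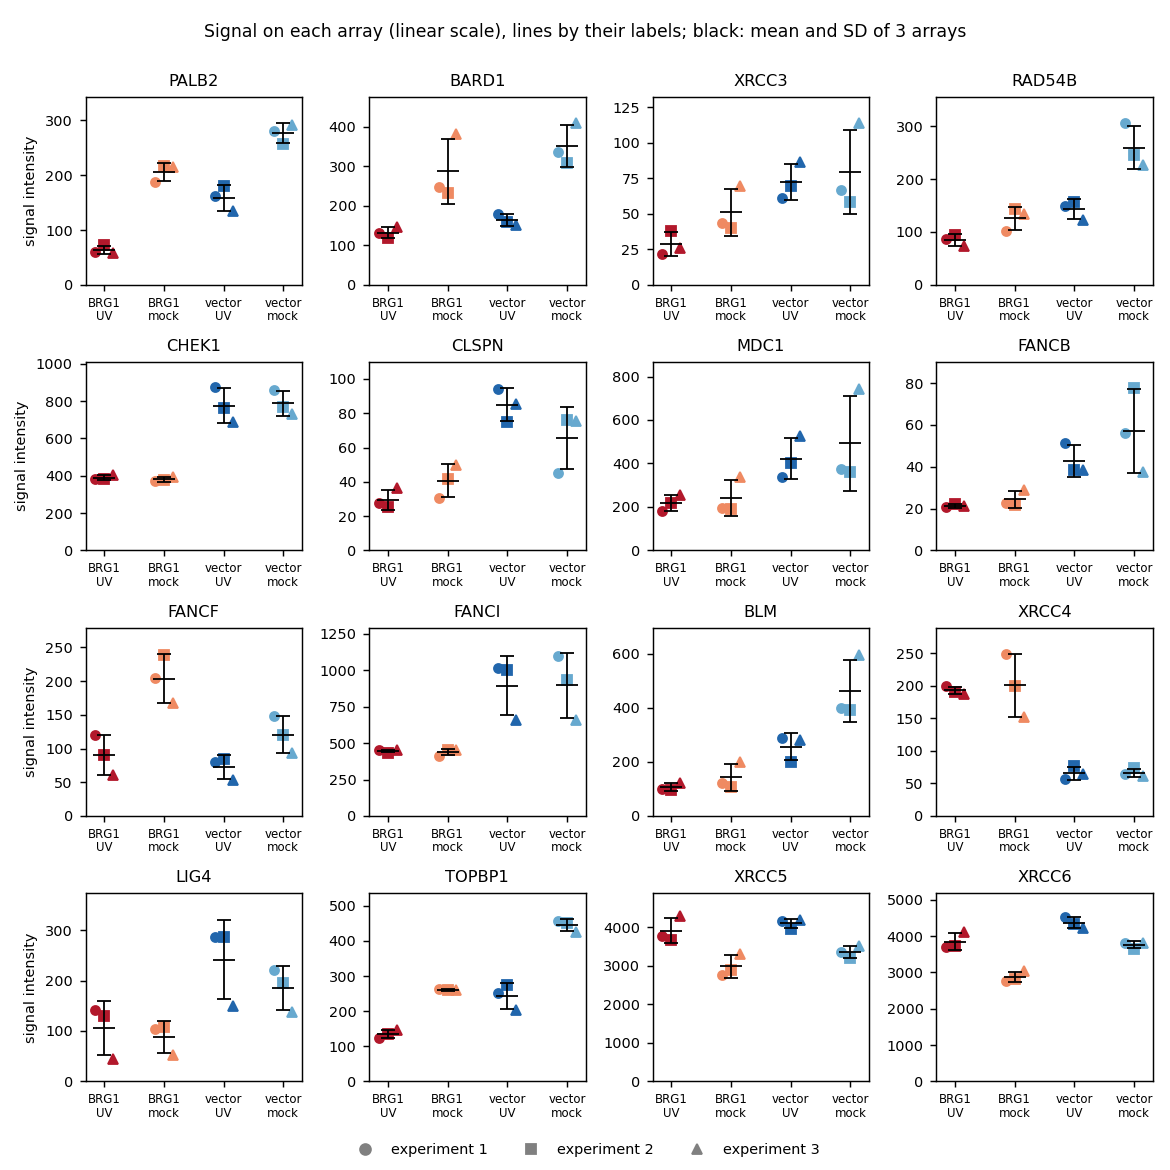
Signal intensity (linear axis from 0) on each of the 12 arrays for the 13 genes called in a pairwise comparison and for TOPBP1, XRCC5 and XRCC6, with the groups on the horizontal axis, the experiment as marker shape, and the mean and SD of 3 arrays in black. CHEK1, FANCI and XRCC4 differ by line at either treatment, BARD1 differs by treatment in either line, and PALB2 is lowest in UV-treated BRG1-labelled cells at 59.0 to 72.7.

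Of the 4 measured genes among BRCA1 and its partners, 3 passed as lower after UV in each line (PALB2, BARD1 and BRIP1). PALB2, which binds BRCA1 in homologous recombination, had the largest UV change of the 37. It gave 59.1, 72.7 and 59.0 in UV-treated and 187, 217 and 215 in mock-treated BRG1-labelled cells. In the vector-labelled line it gave 162, 180 and 134 after UV and 281, 257 and 293 after mock treatment. No 2 of the 4 groups overlapped. The log2 fold change after UV was −1.70 (SE 0.18, adjusted p = 4.37e-05) in the BRG1-labelled line and −0.81 (adjusted p = 0.00843) in the vector-labelled line. After UV the BRG1-labelled line was lower, with a log2 fold change of −1.32 (adjusted p = 7.38e-05), and without UV the difference was −0.43 (adjusted p = 0.0904). The difference between the UV effects was −0.89 (SE 0.25), and its adjusted p of 0.462 did not pass. These calls of PALB2 stood without each single array, with log2 fold changes for UV in the BRG1-labelled line between −2.09 and −1.47 over 25 other ways of processing the arrays.

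BARD1, the ubiquitin ligase partner of BRCA1, gave 132, 118 and 146 in UV-treated and 247, 234 and 383 in mock-treated BRG1-labelled cells. It gave 180, 159 and 150 in UV-treated and 335, 309 and 411 in mock-treated vector-labelled cells. The UV-treated arrays lay below the mock arrays in each line, with log2 fold changes of −1.10 in both (SE 0.20; adjusted p = 0.00214 in the BRG1-labelled and 0.00334 in the vector-labelled line). The fold change was under 2 without the mock BRG1 array of experiment 3 (−0.87) and, in the vector-labelled line, without the mock vector array of experiment 3 (−0.98), with the adjusted p still under 0.05. BRIP1, a helicase that binds BRCA1, averaged 101 ± 13.3 in UV-treated and 165 ± 19.2 in mock-treated BRG1-labelled cells, and 110 ± 19.96 in UV-treated and 183 ± 24.2 in mock-treated vector-labelled cells (log2 fold changes −0.71 and −0.74, adjusted p = 0.0227 and 0.0246). Either value lost its pass without 4 single arrays, with an adjusted p of up to 0.0835 and 0.0935. BRCA1 itself averaged 153 ± 58.5 in BRG1-labelled and 275 ± 68.5 in vector-labelled mock cells (−0.88, adjusted p = 0.0384, up to 0.148 without single arrays), and 137 ± 39.7 in BRG1-labelled and 221 ± 58.6 in vector-labelled cells after UV.

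Of the other recombination genes (RAD51C, RAD51D, XRCC2, XRCC3, RAD52, RAD54L and RAD54B), all 7 had a negative log2 fold change between the lines with and without UV, and 1 passed without UV and 3 after it. XRCC3, which acts in homologous recombination, gave 22.0, 38.1 and 25.7 in UV-treated BRG1-labelled cells, against 61.1, 69.8 and 86.3 in UV-treated vector-labelled cells. After mock treatment it gave 43.2, 39.7 and 69.8 in BRG1-labelled and 66.4, 58.3 and 114 in vector-labelled cells. The lines separated after UV (−1.36, SE 0.35, adjusted p = 0.00835) and overlapped without it (−0.63, adjusted p = 0.212), and 1 of its 12 arrays was under the array median. RAD54B, a DNA-dependent motor protein of recombination, gave 101, 143 and 133.2 in BRG1-labelled and 306, 245 and 227 in vector-labelled mock cells. After UV it gave 87.4, 93.8 and 73.3 in BRG1-labelled and 149, 158 and 122 in vector-labelled cells. All BRG1-labelled arrays lay below those of the vector-labelled line at the same treatment (−1.05, SE 0.20, adjusted p = 0.00163 without UV, and −0.75, adjusted p = 0.012 after it), and in the vector-labelled line the UV arrays lay below the mock arrays (−0.86, adjusted p = 0.0139). The value without UV was −0.90 without the mock BRG1 array of experiment 1 and −0.92 without the mock vector array of experiment 1. The values after UV and for UV lost their pass without 1 array (UV vector array of experiment 2, adjusted p = 0.0515) and without 2 (UV vector array of experiment 3 and mock vector array of experiment 1, up to 0.0672). RAD54L, its paralog, averaged 69.3 ± 20.5 in BRG1-labelled and 134 ± 10.2 in vector-labelled cells after UV (−0.998, adjusted p = 0.0453), and did not pass without 7 single arrays (adjusted p up to 0.177). RAD51C, RAD51D, XRCC2 and RAD52 passed in no comparison by their brightest probe sets. A second probe set of RAD51C, nearly as bright (mean log2 signal 8.165 against 8.215), was lower in the BRG1-labelled line without UV. It gave −0.73 (limma adjusted p = 0.0148 over all probe sets), against −0.16 by the brightest.

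Of the break-sensing complex, MRE11, its nuclease, averaged 287 ± 7.71 in BRG1-labelled and 408 ± 32.6 in vector-labelled mock cells (−0.50, adjusted p = 0.00873), and 291 ± 26.6 in BRG1-labelled and 381 ± 11.5 in vector-labelled cells after UV (−0.39, adjusted p = 0.0306). The value after UV did not pass without 5 single arrays (adjusted p up to 0.0977). NBN, which recruits ATM, averaged 478 ± 77.5 in BRG1-labelled and 733 ± 61.3 in vector-labelled cells after UV (−0.63, adjusted p = 0.00883), and 525 ± 96.3 in BRG1-labelled and 708 ± 52.5 in vector-labelled cells without it (−0.45, adjusted p = 0.0539). Of its 5 tested probe sets, a dimmer one passed as lower without UV (−0.90, limma adjusted p = 0.0233 over all probe sets). RAD50, the tether of the complex, passed in no comparison. None of MRE11, NBN and RAD50 passed in either UV comparison.

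Of the chromatin mediators, MDC1, the scaffold that binds phosphorylated H2AX beside a break, gave 195, 190 and 336 in BRG1-labelled and 373, 359 and 744 in vector-labelled mock cells. After UV it gave 181, 217 and 256 in BRG1-labelled and 337, 404 and 526 in vector-labelled cells. The array of experiment 3 was the highest in each of the 4 groups, and in each experiment the BRG1-labelled array was the lower. The log2 fold change was −1.002 without UV (SE 0.30, adjusted p = 0.0216), at the edge of the 2-fold threshold, and −0.94 (adjusted p = 0.0267) after UV. The value without UV was not called without the mock BRG1 array of experiment 1 (−0.88) or 2 (−0.86) or the mock vector array of experiment 3 (−0.66), and the value after UV did not pass without 4 arrays (adjusted p up to 0.103). TP53BP1, which steers repair towards end joining, averaged 394 ± 33.8 in BRG1-labelled and 295 ± 43.8 in vector-labelled cells after UV and 509 ± 81.5 in BRG1-labelled and 408 ± 21.2 in vector-labelled cells without it, and passed in no comparison.

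Of the Fanconi core complex, 7 genes were measured, and FANCB, FANCE and FANCF passed in at least 1 comparison. FANCB, part of the catalytic module, gave 22.5, 21.8 and 28.9 in BRG1-labelled and 56.1, 77.5 and 37.7 in vector-labelled mock cells, and 20.6, 22.3 and 21.0 in BRG1-labelled and 51.5, 38.3 and 38.6 in vector-labelled cells after UV. FANCB reached the array median on 7 of 12 arrays, all 6 of the vector-labelled line and 1 of the BRG1-labelled line (mock, experiment 3), so it was tested through the vector-labelled arrays and its BRG1-labelled signals lie at the level of dim probe sets, where a fold is uncertain. All BRG1-labelled arrays were the lower at the same treatment, with a log2 fold change of −1.18 (SE 0.35, adjusted p = 0.0215) without UV and −0.99 (adjusted p = 0.0442) after it. The call was lost without 4 single arrays (the mock BRG1 and mock vector arrays of experiments 1 and 2, adjusted p up to 0.109) and the pass after UV without 9 (up to 0.14), and 1 of its 4 tested probe sets was called without UV, with a mean over them of −0.78 (adjusted p = 0.166). FANCF, the adaptor of the core complex, gave 120, 89.9 and 60.1 in UV-treated and 205, 239 and 167 in mock-treated BRG1-labelled cells, and 80.7, 84.4 and 52.6 in UV-treated and 149, 120 and 92.8 in mock-treated vector-labelled cells. The UV arrays lay below the mock arrays in either line; the log2 fold change was −1.22 (SE 0.29, adjusted p = 0.0101) in the BRG1-labelled line and −0.74 (adjusted p = 0.115) in the vector-labelled line. The call in the BRG1-labelled line was lost without the UV BRG1 array of experiment 3 (−0.96) or the mock BRG1 array of experiment 2 (adjusted p = 0.0502). FANCE averaged 72.4 ± 27.6 in UV-treated and 134 ± 25.9 in mock-treated BRG1-labelled cells (−0.95, adjusted p = 0.0236), and 132.8 ± 15.98 in UV-treated and 134 ± 7.41 in mock-treated vector-labelled cells. Its difference between the UV effects was −0.93 (adjusted p = 0.798). Between the lines after UV it was lower (−0.94, adjusted p = 0.0152); that pass was lost without 2 arrays (up to 0.0683) and the pass for UV without 4 (up to 0.0939), the UV BRG1 array of experiment 2 being the one that moved both most.

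FANCI, the ubiquitinated partner of FANCD2, gave 411, 450 and 453 in BRG1-labelled and 1097, 935 and 657 in vector-labelled mock cells. After UV it gave 450, 435 and 453 in BRG1-labelled and 1015, 1004 and 661 in vector-labelled cells. The BRG1-labelled arrays were close to each other and all below the vector-labelled arrays, of which those of experiment 3 were the lowest. The log2 fold change was −1.003 without UV (SE 0.19, adjusted p = 0.00149) and −0.98 (adjusted p = 0.00157) after UV, and all 3 of its probe sets were called without UV. The fold change without UV was under 2 without the mock BRG1 array of experiment 1 (−0.96), the mock vector array of experiment 1 (−0.84) or that of experiment 2 (−0.96), with the adjusted p still under 0.05. FANCC, FANCG, FANCL and FANCM passed in no comparison.

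BLM, the RecQ helicase that dissolves recombination intermediates, was the gene of the 37 with the largest difference between the lines without UV. It gave 121, 108 and 199 in BRG1-labelled and 399, 394 and 597 in vector-labelled mock cells. After UV it gave 101, 94.2 and 123 in BRG1-labelled and 290, 199 and 282 in vector-labelled cells. Each BRG1-labelled array lay below every vector-labelled array of the same treatment, with a log2 fold change of −1.72 (SE 0.25, adjusted p = 0.000201, 3.29-fold) without UV and −1.27 (adjusted p = 0.00181, 2.40-fold) after UV. Both calls stood without each single array. In the vector-labelled line the UV arrays lay below the mock arrays (−0.84, adjusted p = 0.0437), a pass that was lost without 9 of the 12 single arrays (adjusted p up to 0.159). WRN, the other RecQ helicase of the set, averaged 110 ± 45.6 in BRG1-labelled and 128 ± 41.1 in vector-labelled cells after UV and 170 ± 11.3 in BRG1-labelled and 183 ± 23.5 in vector-labelled cells without it, and passed in no comparison.

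The end joining genes moved in different directions. XRCC4, the scaffold of the ligase complex, was the gene called higher in the BRG1-labelled line. It gave 249, 201 and 153 in BRG1-labelled and 64.8, 73.5 and 61.0 in vector-labelled mock cells, and 200, 191 and 188 in BRG1-labelled and 56.7, 76.6 and 64.1 in vector-labelled cells after UV. The lowest BRG1-labelled array was above the highest vector-labelled array at either treatment, with log2 fold changes of 1.57 (SE 0.21, adjusted p = 9.97e-05) without UV and 1.56 (adjusted p = 8.85e-05) after it, and UV changes of −0.03 in the BRG1-labelled and −0.02 in the vector-labelled line. Both calls stood without each single array, and 3 of its 4 tested probe sets were called without UV and 2 after UV. LIG4, the ligase that XRCC4 holds, gave 142, 129 and 44.3 in BRG1-labelled and 287, 286 and 150 in vector-labelled cells after UV. After mock treatment it gave 104, 109 and 52.2 in BRG1-labelled and 221, 196 and 138 in vector-labelled cells. The array of experiment 3 was the lowest in each group, and within each experiment the BRG1-labelled array was the lower. The call after UV (−1.30, SE 0.44, adjusted p = 0.0355) was lost without the UV BRG1 array of experiment 3 (−0.77, adjusted p = 0.144). It was also lost without the UV vector array of experiment 1 or 2 (adjusted p = 0.117 and 0.118). Without UV the value was −1.11 (adjusted p = 0.0749). With the experiment number as a block in limma, the value without UV was called (adjusted p = 0.000533).

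Ku is the ring that binds broken ends, and DNA-PKcs (PRKDC) is the kinase it recruits. XRCC6 (Ku70) gave 2765, 2830 and 3032 in BRG1-labelled and 3824, 3652 and 3823 in vector-labelled mock cells (−0.39, SE 0.08, adjusted p = 0.00237; −0.83, adjusted p = 0.202, as the mean over its probe sets), and 3708, 3717 and 4121 in BRG1-labelled and 4538, 4347 and 4237 in vector-labelled cells after UV (−0.19, adjusted p = 0.0967). XRCC5 (Ku80) gave 3779, 3681 and 4286 in UV-treated and 2756, 2897 and 3323 in mock-treated BRG1-labelled cells. The UV arrays of both genes were above the mock arrays in the BRG1-labelled line, by 0.42 for XRCC6 (adjusted p = 0.00261) and 0.39 for XRCC5 (adjusted p = 0.0104), but these small values rest on the scaling: XRCC6 was at 0.07 and XRCC5 at 0.03 after quantile normalization (adjusted p = 0.558 and 0.854), XRCC6 at 0.03 and XRCC5 at −0.002269 when arrays were scaled to the hybridization controls, and XRCC5 at −0.28 as the mean over its probe sets. XRCC5 also did not pass without the mock BRG1 array of experiment 1 (adjusted p = 0.0579). In the vector-labelled line the UV arrays of both genes lay above the mock arrays too. The values there were 0.29 for XRCC5 and 0.22 for XRCC6, which did not pass in limma (adjusted p = 0.0598 and 0.094). PRKDC averaged 1202 ± 28.6 in BRG1-labelled and 1554 ± 48.9 in vector-labelled mock cells (−0.37, adjusted p = 0.0294), a pass that was lost without 5 single arrays (adjusted p up to 0.0904), and 1097 ± 136 in BRG1-labelled and 1285 ± 151 in vector-labelled cells after UV.

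The 12 genes whose brightest probe set passed in none of the 4 pairwise comparisons were RAD51C, RAD51D, XRCC2, RAD52, RAD50, ATR, TP53BP1, FANCC, FANCG, FANCL, FANCM and WRN, with log2 fold changes between −1.17 and 0.42. The widest of these belonged to FANCM, a translocase of the core complex, at 29.0 ± 19.2 in UV-treated and 52.8 ± 6.00 in mock-treated BRG1-labelled cells and 30.0 ± 3.86 in UV-treated and 69.4 ± 22.4 in mock-treated vector-labelled cells (−1.06 and −1.17, adjusted p = 0.102 and 0.0841). A p that misses the threshold does not show that these genes were alike in the groups.

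The difference between the UV effects of the lines was tested for each gene as an interaction. None of the 37 passed in limma (smallest adjusted p 0.462), beside 0.0943% of all genes (13 of 13784), and 2 had an unadjusted p under 0.05, PALB2 and FANCE, both with a larger drop in the BRG1-labelled line. Of the 9 genes that passed for UV in the BRG1-labelled line and the 7 in the vector-labelled line, 5 passed in both (ATM, BARD1, BRIP1, PALB2 and TOPBP1). These comparisons share no array but share the estimate of the spread. Over the 37 genes, which are not independent replicates, the 2 UV effects correlated at 0.714, beside 0.51 over all tested genes, with the same sign in 31.

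**Figure D3:**
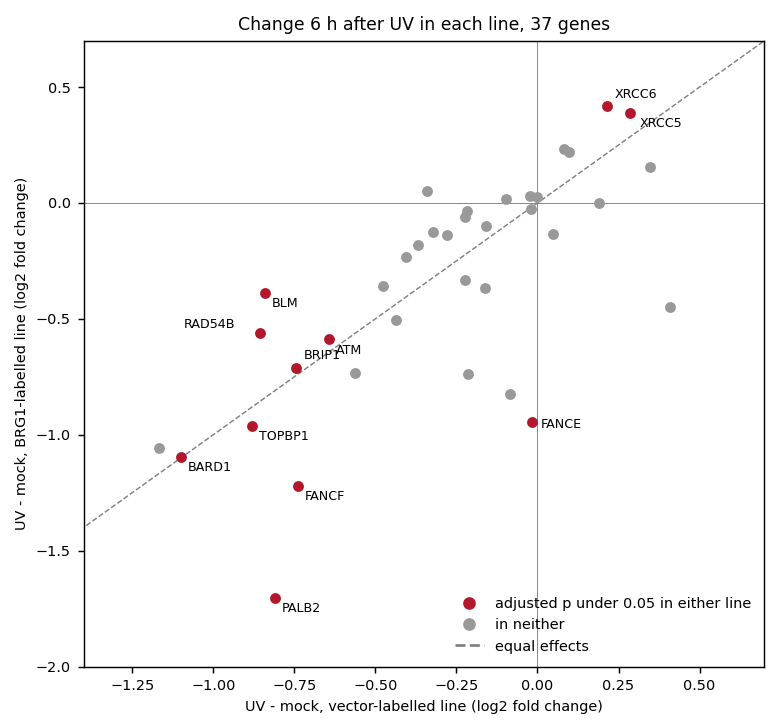
Log2 fold change 6 h after UV for the 37 genes in the vector-labelled line (horizontal) and the BRG1-labelled line (vertical), red where the adjusted p was under 0.05 in either line; the dashed line marks equal effects. BARD1, BRIP1, ATM and TOPBP1 lie near the dashed line, and PALB2 (−1.70 against −0.81) and FANCE (−0.95 against −0.02) lie below it, a difference that did not pass for either gene.

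The same comparisons were made for 61 other genes of these pathways, of which 58 were tested. Between the lines 6 of them were called without UV, all lower (RAD51AP1, DNA2, RMI1, UBE2T, CDC25A and PAXIP1), and 11 after UV, all lower, with medians of −0.35 and −0.39. These are 10.3% and 19% of the 58, beside 5.27% and 6.86% of all genes called lower and 9.38% and 9.85% called higher. DNA2, a nuclease of end resection, averaged 58.4 ± 13.9 in BRG1-labelled and 239 ± 36.0 in vector-labelled cells after UV, and UBE2T, the enzyme that hands ubiquitin to the Fanconi core complex, averaged 546 ± 177 in BRG1-labelled and 1487 ± 164 in vector-labelled cells after UV. After UV in the BRG1-labelled line 5 were called, all lower (EXO1, RAD17, WEE1, CDC25A and RNF168), which is 8.62% of the 58, beside 6.57% of all genes called lower. In the vector-labelled line 0 were called by limma, beside 4.16% of all genes called lower. There 3 passed by the adjusted p alone as higher and 7 as lower, beside 5.56% and 8.48% of all genes. CDC25A, the phosphatase that CHEK1 marks for destruction, averaged 9.55 ± 5.41 in UV-treated and 53.7 ± 28.9 in mock-treated BRG1-labelled cells, and 127 ± 29.4 in UV-treated and 217 ± 163 in mock-treated vector-labelled cells; all 3 UV-treated BRG1-labelled arrays were below the array median, so the size of that difference is uncertain.

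Proliferation genes differed between the lines in the same direction, with larger medians. Of 26 such genes, among them cyclins, MCM helicase subunits and E2F factors, 13 were called lower in the BRG1-labelled line without UV (median −0.99) and 17 after UV (median −1.22), with 26 of 26 negative in each and 0 called higher. These are 50% and 65.4% of the 26, beside 5.27% and 6.86% of all genes called lower. After UV 2 were called lower in the BRG1-labelled and 1 in the vector-labelled line. These are 7.69% and 3.85% of the 26, near the 6.57% and 4.16% of all genes called lower. Fewer cells in S phase and less RNA per cell cannot be told apart in these bulk samples, and the part of the proliferation genes in the differences of the checkpoint and repair genes was not tested.

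**Figure D4:**
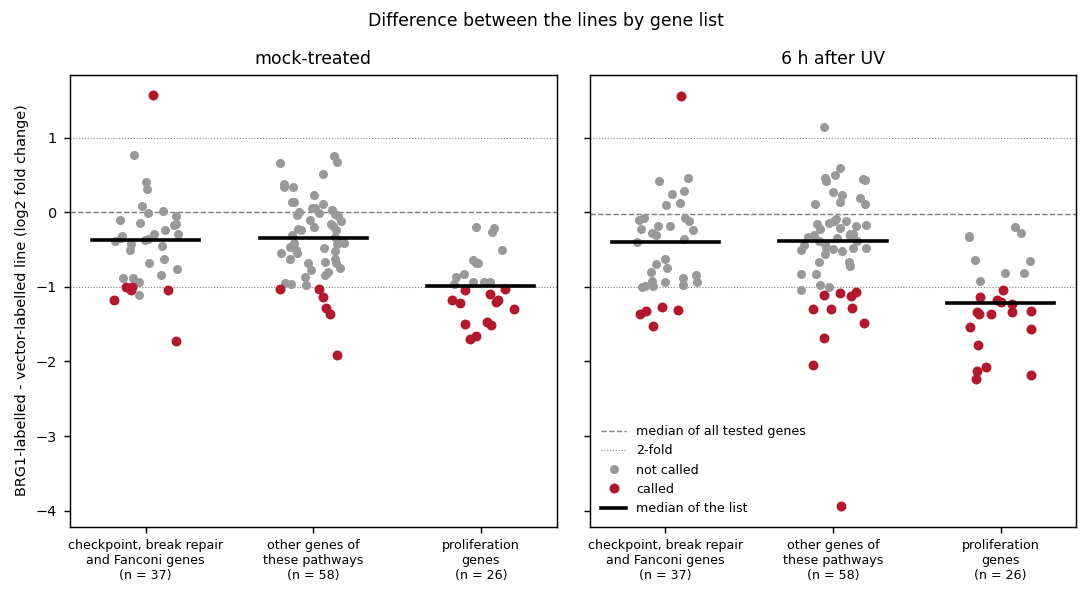
Log2 fold change of the BRG1-labelled against the vector-labelled line for single genes (points, red where called) in 3 gene lists, mock-treated at left and after UV at right; thick bars are list medians, the dashed line the median of all tested genes and dotted lines 2-fold. Medians of the checkpoint and repair genes are −0.37 and −0.39, and those of the proliferation genes −0.99 and −1.22.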

How the data were processed

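Total RNA of 12 cultures was hybridised to Affymetrix U133 Plus 2.0 arrays. The authors deposited MAS signal intensity values on a linear scale, with all probe sets of an array scaled by them to a mean of 125; the trimmed mean of every deposited column was 125.02. No arrays were pooled. Precision is limited by 3 arrays per group.

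Signals were taken to log2. Of 54613 probe sets that were not controls (62 were), 32622 reached the array median on at least 3 of 12 arrays and were tested. GEO's platform annotation gives 41097 of the 54675 probe sets to 1 gene, 1801 to several and 11777 to none; only the first were named, and each gene was represented by its brightest probe set. limma 3.58.1 (R 4.3.3; lmFit with 1 mean per group, eBayes with trend) was fitted on the whole table, with p-values two-sided and adjusted over 13784 genes. A call needed an adjusted p under 0.05 and a fold above 2, an interaction the adjusted p alone. The model was tested on simulated data.

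The members and lists were chosen with earlier results of these data known. Every called gene is described with its value on each array, genes that only passed with group means, and the rest by counts and ranges. Promoter sequences are RefSeq's (GRCh38.p14). Alternatives were another filter or none, quantile normalization, a common median, scaling to 18 hybridization controls, 16 added to the signal, the compared arrays alone, the mean over probe sets, adjustment over all probe sets, no fold threshold, the methods' t-test, the experiment number as a block, and leaving out each array.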

Additional observations from a re-analysis of the deposited data

How the results depend on the processing

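Over the other ways of processing the arrays, 976 of 1172 values of the 47 log2 fold changes that passed kept their direction and their side of the threshold, 194 lost a call or a pass (174 with an adjusted p no longer under 0.05, 20 with the fold alone under 2) and 2 reversed: XRCC5 after UV in the BRG1-labelled line, at −0.002269 when scaled to hybridization controls and −0.28 as the mean over probe sets. Counts of called genes below run in the order lines without UV (7), lines after UV (6), UV in the BRG1-labelled line (3) and UV in the vector-labelled line (1); the interaction count was 0 under each alternative run. Scaling to the hybridization controls shifted the median of all genes to −0.16 between the lines after UV, −0.36 for UV in the BRG1-labelled line, −0.23 in the vector-labelled line and −0.13 for the interaction, and called 12, 9 and 7 genes in the last 3 comparisons, all lower but XRCC4; the medians of the 37 genes there were −0.54, −0.63 and −0.48 (−0.08 for the interaction). Quantile normalization called 10 between the lines without UV (9 lower) and 8 after UV (7 lower), and 1 and 0 for UV. Adding 16 to the signal called 3 without UV. The mean over probe sets called 4 without UV and 2 for UV in the vector-labelled line; beside the genes named with it above, it ended the passes of MRE11 (adjusted p = 0.0942 without UV, 0.144 after), MDC1 (0.0945 and 0.0873) and BRCA1 (0.0545 without UV) between the lines, of BRIP1 for UV in the BRG1-labelled line (0.0576) and of BLM for UV in the vector-labelled line (0.0518). Without the fold threshold the counts were 13, 18, 9 and 7. The methods' t-test called 2 for UV in the vector-labelled line unadjusted, and 1, 3, 1 and 0 after adjustment. Leaving out single arrays gave 3 to 10, 5 to 11, 2 to 4 and 0 to 2, and 0 for the interaction; the count of 3 came without the mock BRG1 or the mock vector array of experiment 1, 11 without the UV BRG1 array of experiment 3, 2 for UV in the vector-labelled line without the UV BRG1 array of experiment 2, and 0 there without the mock vector array of experiment 3. Without all arrays of experiment 3, chosen after seeing the data, the counts were 13 after UV between the lines and 0 for UV in the vector-labelled line. Shares of all tested genes called under each alternative are not set beside these counts, so their changes are no result about the 37 genes. The cause of these changes was not tested.

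With the experiment number as a replicate block the counts were 8, 6, 3 and 1, and 0 for the interaction, and no passing gene was lost; the gene gained was LIG4 between the lines without UV (−1.11, adjusted p = 0.000533 with the block and 0.0749 without it). Deviations of arrays that share a number correlated at 0.0152 to 0.293 over 18 pairs, and those with different numbers at −0.223 to 0.137 over 36. All 6 pairs of experiment 3 (0.179 to 0.293) were above the highest pair of different numbers, as a hint from the data that these arrays deviate together. The 12 pairs of experiments 1 and 2 were all positive, and 5 of them were above 0.1. The fit without the block was kept, which leaves what arrays of an experiment share in the spread.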
